A study of Homo sapiens with 40 samples.

Results

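The enhancer repertoires of EndoC-βH3 cells in 2 states were compared, one list of 14886 enhancers from non-senescent cells and one of 13076 from senescent cells, 27962 entries in all. The series holds 51489 H3K27ac peaks, of which 10242 held enhancers of both lists, 4291 non-senescent ones alone, 2623 senescent ones alone and 34333 none. The study entered a region when H3K27ac and H3K4me1 signals overlapped outside an active promoter, and every enhancer of both lists lay wholly inside 1 of the 51489 H3K27ac peaks. EndoC-βH3 is a single cell line derived from a human fetal pancreas and immortalized with hTERT and the SV40 large T-antigen, so each state comes from 1 genetic background. It carries a CreER recombinase that, when activated, excises both transgenes. The senescent state was reached by 3 weeks of 4-hydroxytamoxifen, and the non-senescent cells were the same line without it, so the drug, the time in culture and the loss of the transgenes cannot be told apart. H3K27ac had been measured in 3 libraries of each state and H3K4me1 in 2, each with its own input. Only 1 list per state was used here, with positions and no values per library. No test between the states was therefore possible, and all intervals below cover counting error alone.

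Enhancers are stretches of DNA outside promoters that raise transcription of genes in the same chromosomal neighborhood when transcription factors occupy them. H3K4me1 marks enhancers in general and H3K27ac those that are active, so the overlap of both marks is a common working definition of an active enhancer. In beta cells, enhancers near insulin, its regulators and the secretory machinery are bound by factors such as NEUROD1, MAFA, FOXA2 and RFX6, and large stretches of clustered enhancers lie near genes that define the cell. Senescence is a lasting exit from the cell cycle, in which p53 and Rb hold proliferation genes silent.

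Sequences from enhancers that were in 1 list alone are given here because their content of transcription factor motifs differed, as described at the end, although that of the whole lists differed little. The motif CAGATG, read as CATCTG where it lies on the reverse strand, is bound by NEUROD1 and related factors and was denser in the enhancers of the non-senescent list alone. The motif TGCTGAC, read as GTCAGCA on the reverse strand, is the core of the site bound by MAF proteins such as MAFA and was denser in those of the senescent list alone. From the 4 genes with the largest decrease and the 4 with the largest increase in number of enhancers, among those with such a match, 1 stretch each was read from hg38, forward strand, 60 bases on either side of a match inside an enhancer that overlapped none of the other list. Capitals mark the match.
ADGRL2 (non-senescent list alone, intergenic, hg38 chr1:82099586-82099711): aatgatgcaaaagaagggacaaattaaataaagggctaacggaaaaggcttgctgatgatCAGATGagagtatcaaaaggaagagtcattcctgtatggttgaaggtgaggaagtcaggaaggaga
KCNMB2 (non-senescent list alone, intronic, hg38 chr3:178707544-178707669): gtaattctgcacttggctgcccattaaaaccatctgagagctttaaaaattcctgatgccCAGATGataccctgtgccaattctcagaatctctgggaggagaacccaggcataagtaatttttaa
LRMDA (non-senescent list alone, intronic, hg38 chr10:75702875-75703000): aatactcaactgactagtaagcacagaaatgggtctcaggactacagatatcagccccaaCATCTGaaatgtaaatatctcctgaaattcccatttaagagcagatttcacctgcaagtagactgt
TENM4 (non-senescent list alone, intronic, hg38 chr11:79061317-79061442): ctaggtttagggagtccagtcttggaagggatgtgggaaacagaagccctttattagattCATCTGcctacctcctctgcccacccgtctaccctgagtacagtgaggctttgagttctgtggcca
FARP1 (senescent list alone, intronic, hg38 chr13:98203509-98203635): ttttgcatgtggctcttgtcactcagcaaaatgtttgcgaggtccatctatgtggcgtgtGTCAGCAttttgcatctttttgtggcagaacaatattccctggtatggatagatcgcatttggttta
FMN1 (senescent list alone, intronic, hg38 chr15:32884185-32884311): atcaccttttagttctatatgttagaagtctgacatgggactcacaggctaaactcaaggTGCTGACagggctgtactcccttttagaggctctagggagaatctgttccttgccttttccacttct
RIMBP2 (senescent list alone, intronic, hg38 chr12:130568058-130568184): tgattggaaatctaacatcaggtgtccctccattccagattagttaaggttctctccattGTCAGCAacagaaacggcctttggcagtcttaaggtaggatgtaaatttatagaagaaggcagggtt
ZDHHC14 (senescent list alone, intronic, hg38 chr6:157506372-157506498): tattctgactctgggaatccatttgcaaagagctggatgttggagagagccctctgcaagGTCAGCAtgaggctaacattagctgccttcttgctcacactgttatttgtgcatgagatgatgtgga

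Each stretch is centered on 1 match, the KCNMB2 stretch also holds the motif on the reverse strand in lower case, and the ADGRL2 and KCNMB2 enhancers held 3 and 8 matches in all. A match of so few letters is a description and not a site of binding: CAGATG was found in 18.4% of all 300-bp windows of the genome and TGCTGAC in 3.17%.

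The senescent list held fewer but wider enhancers. From the non-senescent to the senescent list the number of enhancers decreased by 12.2%, whereas the length of genome covered, 41.9 and 41.0 Mb, decreased by 2.22%. The median enhancer was 2486 bp wide in senescent cells (95% order-statistic interval 2455 to 2515) and 2279.5 bp in non-senescent cells (2252 to 2306). At the upper end, 269 senescent enhancers (2.06%) were 10 kb or wider compared with 179 (1.20%) in the non-senescent list, whereas enhancers under 1 kb numbered 847 (6.48%) and 1220 (8.20%). The smallest width was 500 bp in both lists, held by 187 and 252 enhancers. Every autosome and chromosome X had fewer senescent enhancers, with ratios between 0.808 on chromosome X (343 and 277 enhancers) and 0.997 on chromosome 20 (377 and 376).

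**Figure D1:**
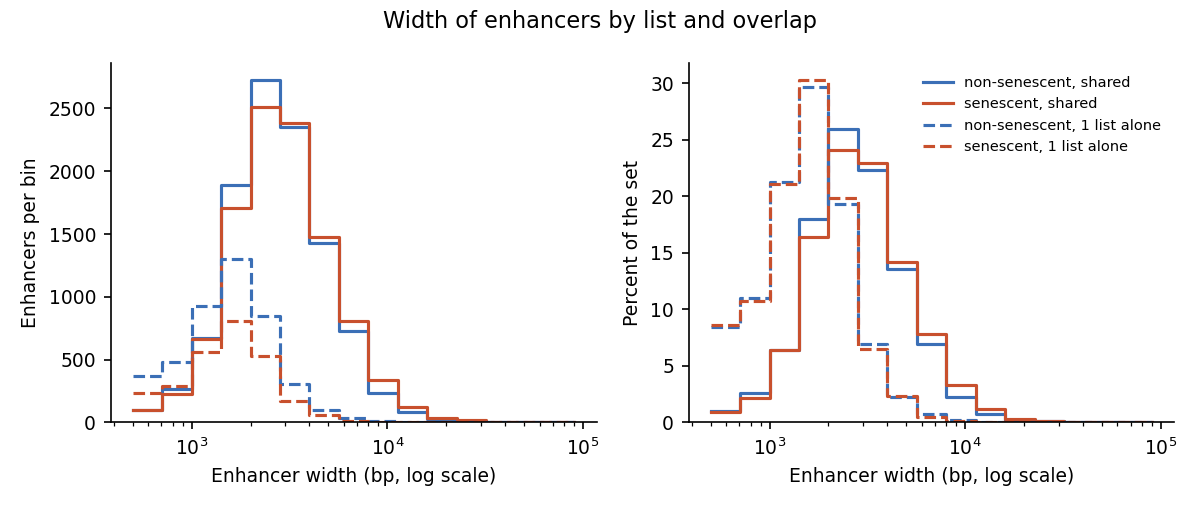
Width of enhancers in bins of 0.5 on the log2 scale, as the number per bin (left) and as the percent of the set (right), for enhancers of the non-senescent (blue) and senescent (red) lists that overlap the other list (solid) or not (dashed). Enhancers in 1 list alone peak below 2 kb in both lists (medians 1573 and 1570 bp), and shared enhancers peak above it (2696 and 2822 bp).

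Neighboring enhancers were farther apart in the senescent list, with a median gap of 69.5 kb compared with 59.6 kb. Stitched at a distance commonly used to define enhancer clusters, the enhancers formed 11707 groups in non-senescent and 10506 in senescent cells. Of these, 2317 and 1886 held several enhancers, which took in 36.9% and 34.1% of each list, and 70 and 50 held 5 or more. Groups near SSBP3, MTSS1 and VAV2 were among the 5 most populated of both lists. The group near SSBP3, which encodes a cofactor of LIM-domain transcription factors, spanned 105.5 kb with 11 non-senescent enhancers and 104.6 kb with 9 senescent ones. A group at MTSS1 had 7 non-senescent and 9 senescent enhancers. Some groups were among the 5 most populated of 1 list alone, and for these the enhancers of the other list in the same span were counted, whether or not they formed 1 group. The senescent group at FOXA2, a pioneer factor of endoderm and islets, had 9 enhancers, with 9 non-senescent ones in its span. A senescent group of 9 near CDC42EP3 had 6 non-senescent enhancers in its span, and a non-senescent group of 9 near MGST2 had 7 senescent ones.

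Most enhancers had 1 counterpart in the other state. With an overlap of at least 1 bp, the 27962 enhancers fell into 17330 units, of which 9956 (57.4%) paired 1 non-senescent with 1 senescent enhancer. A further 211 units merged several non-senescent enhancers (429 in all) into 1 senescent enhancer, 95 split 1 non-senescent enhancer into several (194 in all), and 17 joined several on both sides. The rest were the 4371 enhancers of the non-senescent list alone (29.4% of that list, Wilson 95% interval of the shared share 69.9% to 71.4%) and the 2680 of the senescent list alone (20.5%, shared share 78.8% to 80.2%). The lists are unequal in size. With the non-senescent list trimmed to its 13076 widest enhancers, which also takes out its narrowest, 75.9% of it and 75.3% of the senescent list were shared.

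**Figure D2:**
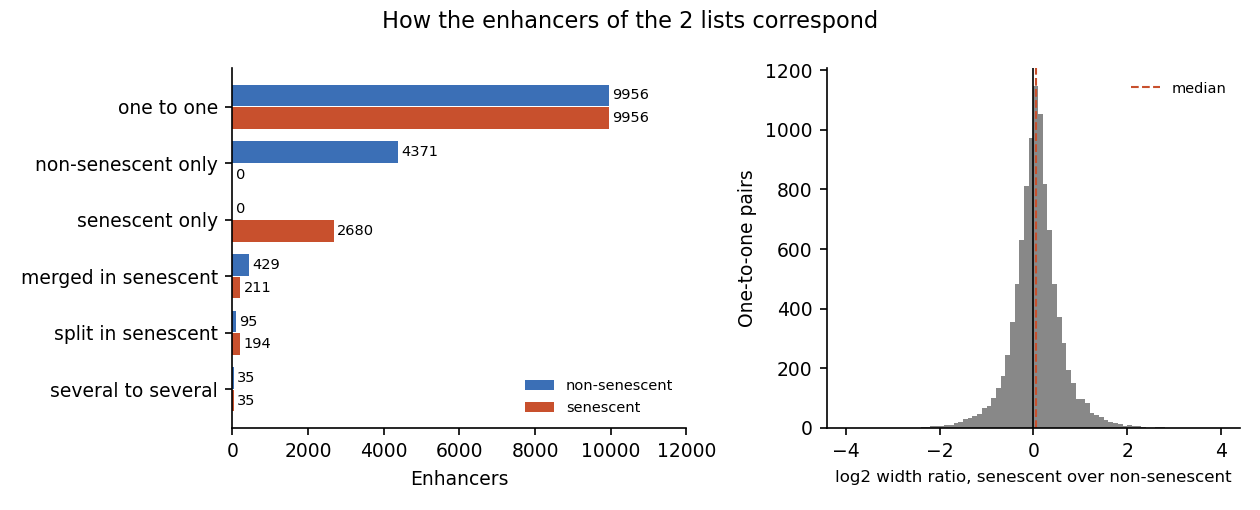
Left, number of enhancers of each list by how they correspond, from pairs of 1 and 1 (9956) through enhancers in 1 list alone (4371 and 2680) to merged (429 into 211), split (95 into 194) and other units. Right, number of one-to-one pairs by the log2 ratio of senescent over non-senescent width in bins of 0.1, with the median (0.060) as a dashed line just above 0.

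Merged units outnumbered split ones by 211 to 95, and the 3 widest senescent enhancers were merged ones. After enhancers under 1 kb apart were joined within each list, 157 merged and 58 split units were left. The widest, 63.2 kb, lay at RAP1GAP2 (hg38 chr17:2881246-2944430, overlapping exons and a start site), a regulator of the GTPase RAP1 in secretory cells. It joined 3 non-senescent enhancers of 58.7 kb together. The next, 45.0 kb, covered part of ABCC8 (chr11:17403513-17448501, with exons and a start site), the sulfonylurea receptor subunit of the potassium channel that couples glucose to insulin release. It joined 2 enhancers of 42.8 kb. At ZFPM1, a cofactor of GATA factors, 3 enhancers of 30038 bp became 1 of 40124 bp, and at ACTN4, which encodes an actin crosslinker, 4 enhancers of 15619 bp became 1 of 25854 bp. At CACNA1A, a calcium channel subunit, 3 enhancers of 17375 bp became 1 of 23654 bp. In the median merged unit, 6366 bp of non-senescent enhancers stood against 8219 bp in senescent cells. The definition of a merged unit favors this order, because the gaps between the several enhancers are not counted.

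Split units held fewer bases in the senescent list, with medians of 6124 bp in the non-senescent and 5099 bp in the senescent list. Here too the definition favors the order, with the gaps on the senescent side. GAREM1, FARP1, SLAMF8 and DOCK10 each had 1 non-senescent enhancer that corresponded to 3 senescent ones, the first with 13229 bp against 11448 bp. The widest non-senescent enhancer, 26984 bp at AHDC1 (chr1:27553456-27580439), corresponded to 2 senescent enhancers that together were longer, 29964 bp. At FOXO1, a forkhead factor that responds to stress and insulin signals, 3 enhancers over 300 kb from the start site corresponded to 2. In peaks that held enhancers of both lists, the non-senescent list had more of them in 238 (median peak width 8830 bp) and the senescent list in 130 (6910.5 bp). The median peak with 1 of each was 3305 bp wide.

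Among the one-to-one pairs, senescent enhancers were slightly wider. The median log2 width ratio was 0.060 with an interquartile range of -0.20 to 0.32, and 5686 of 9956 pairs (57.1%) were wider in senescent cells. A senescent enhancer was at least 2-fold wider in 419 pairs and at least 2-fold narrower in 296. No pair had identical edges. A senescent enhancer lay inside its partner in 2496 pairs, contained it in 3553 and was staggered in 3907, and the median edge moved by 295 bp. ECE1, which encodes endothelin-converting enzyme, had the largest gain of width, from 3424 to 32393 bp (chr1:21245041-21277433). An enhancer of SLC30A8, the zinc transporter of insulin granules, went from 10937 to 18291 bp. The largest difference in the other direction was at PRKCH, a protein kinase C, from 17691 to 3502 bp (chr14:61408684-61412185). An enhancer of CLU, a secreted chaperone, went from 13661 to 7945 bp.

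In bases, the lists differed less than in number. The lists had 30.5 Mb in common, 72.8% of the non-senescent and 74.5% of the senescent bases. Enhancers of the non-senescent list alone accounted for 7.75 Mb, compared with 4.65 Mb for the senescent list alone. Conversely, shared enhancers extended over 5.82 Mb that was outside the non-senescent list in senescent cells, and over 3.66 Mb in the opposite direction.

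Enhancers in 1 list alone were narrower than shared ones and lay in peaks with lower H3K27ac counts. The sorting itself can favor this order. A wider region is more likely to overlap another by 1 bp, and signal in 1 state alone lowers a mean over both. How far the sorting set the order was not tested. The median widths of enhancers in 1 list alone were 1573 bp (non-senescent) and 1570 bp (senescent), compared with 2696 and 2822 bp for shared enhancers. The median of the authors' mean H3K27ac count of their peaks, pooled over both states, was 132 and 136 compared with 422 and 417. Per kb of peak the values were 66.6 and 66.9 compared with 117 and 117, and a mean over both states does not give the level in either. CTCF, which anchors chromatin loops, had a peak in 18.0% and 18.6% of them compared with 26.8% and 27.3% of shared enhancers. Per length the order was the opposite, 107 and 111 peaks per Mb compared with 93.7 and 89.9. Rb regions were rare in all classes, at most 49.

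The 2 classes differed in position. Enhancers of the senescent list alone lay nearer to start sites, at a median of 32.9 kb compared with 43.9 kb for the non-senescent list alone, and 34.5 kb for shared enhancers of either list. Introns without exons held 46.6% of the first and 42.7% of the second, and 38.2% and 44.4% were intergenic. Both classes were mostly isolated from the other list rather than shifted: the nearest enhancer of the other list was at a median of 36.5 kb (senescent alone) and 40.0 kb (non-senescent alone), and only 49 and 66 had one within 1 kb. Only 46 and 41 shared an H3K27ac peak with an enhancer of the other list.

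A small share of the enhancers in 1 list alone stood in strong H3K27ac peaks, and these peaks were often next to start sites. In the non-senescent list 373 (8.53%) had a mean count at or above the median of shared enhancers, and the peak came within 2 kb of a protein-coding start site in 60.3% of these, compared with 4.25% of the others and 7.43% of shared enhancers. In the senescent list the numbers were 184 (6.87%), and 40.8%, 5.09% and 7.24%. Of the 11 non-senescent enhancers of 10 kb or more without a counterpart, 9 were in such peaks. These include 26.0 kb at CMIP (chr16:81632298-81658317, with exons and a start site), 18.8 kb at SCGN, a calcium-binding protein of islet cells, and 13.2 kb at JUP, a desmosome component. The H3K27ac peaks there come from a table pooled over both states, which does not give the level in either. The list definition sets active promoters aside, and whether that step placed these regions in 1 list was not tested. No enhancer of the senescent list alone reached 10 kb. The widest were 9991 bp at MBNL1, 8773 bp at RNF8, a ubiquitin ligase of the DNA damage response, 8500 bp nearest to AACS, 7480 bp nearest to MRPL23 and 7347 bp near ZFP36, which encodes an mRNA decay factor.

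Enhancers of the non-senescent list alone, the more numerous class (4371 and 2680), came in longer runs, and whether their number accounts for this was not tested. Along the genome, 3053 runs of non-senescent-only enhancers were found, a single enhancer counted as a run, with 268 of 3 or more and 28 of 5 or more. The senescent list alone had 2199 runs, with 80 of 3 or more and 2 of 5 or more. A run of 8 over 308.0 kb on chromosome 1 was near ADGRL2, an adhesion receptor of synapses. Another of 8 over 844 kb on chromosome 7 was near EEPD1, AOAH and ELMO1, and one on chromosome 2 was near BARD1, FN1, MREG and XRCC5, of which FN1 encodes fibronectin. The senescent runs of 5 were on chromosome 4, near NDNF, QRFPR and ANXA5 and near NEIL3, AGA and TENM3.

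By nearest start site, 6744 of 19362 protein-coding genes (34.8%) had at least 1 enhancer, 6076 in non-senescent and 5787 in senescent cells. A gene had 2.45 enhancers on average in the first and 2.26 in the second, a median of 1 in both. More enhancers in senescent cells were found for 1429 genes (21.2%) and fewer for 2455 (36.4%), and in 2467 genes all enhancers were shared and equal in number. A loss of 3 or more was found for 227 genes and a gain of 3 or more for 49. Fewer enhancers did not always mean fewer bases: of the 2455 genes, 254 (10.3%) had more enhancer bases in senescent cells, and over all genes 3315 had more bases and 3426 fewer. The nearest gene is a convention, and 27.1% and 26.1% of enhancers were over 100 kb from any protein-coding start site.

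The largest differences in number per gene were toward fewer enhancers in senescent cells. ADGRL2 went from 20 to 6 enhancers, and the 14 without a counterpart were 893 to 3613 bp wide and 3.99 to 365.8 kb from a start site. KCNMB2, an auxiliary subunit of the calcium-activated potassium channel, went from 15 to 5, and 7 of the 10 without a counterpart were intronic. LRMDA, a melanocyte differentiation gene, went from 19 to 10, TENM4, a teneurin adhesion protein, from 16 to 7, RBFOX1, a neuronal splicing factor, from 18 to 10, and DSCAM, an adhesion molecule, from 14 to 7. HMHB1 went from 8 to 1, and RAPGEF5, SIPA1L2 and ARHGAP6, regulators of small GTPases, from 11 to 4, from 7 to 1 and from 8 to 2. The enhancer bases also decreased in all 10 genes. They decreased by 8157 at TENM4, the smallest difference of the 10, and decreased by 24023 at ADGRL2, the largest. The differences in number depended on the assignment to genes. With enhancers within 100 kb alone, the change was -4 at ADGRL2 and HMHB1, -3 at LRMDA and RBFOX1, -2 at TENM4, -8 at KCNMB2 and -5 at DSCAM. With the 5' end of each gene as its only start site, it was -4 at KCNMB2, -2 at RBFOX1, -7 at TENM4 and 0 at ARHGAP6.

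Differences toward more enhancers were smaller. FARP1, a guanine nucleotide exchange factor, went from 5 to 12 enhancers, 5 of them without a counterpart and intronic, 1588 to 4485 bp wide. FMN1, a formin, went from 10 to 16, RIMBP2, which ties calcium channels to vesicle release sites, from 8 to 13, CDK14 from 11 to 16 and ZDHHC14 from 3 to 8. GPC5, a glypican, went from 8 to 13, NRIP1, a nuclear receptor corepressor, from 3 to 8, CELF4, an RNA-binding protein, from 21 to 25, AOPEP from 12 to 16, and EHMT1, a histone H3K9 methyltransferase, from 5 to 9. All 10 also had more bases in senescent cells, by 8930 (NRIP1) to 33095 (CELF4). The assignment of enhancers to genes set some of these differences: with the 5' end of each gene as its only start site, FARP1 and CDK14 had equal numbers in both lists, and with enhancers within 100 kb alone GPC5 did.

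**Figure D3:**
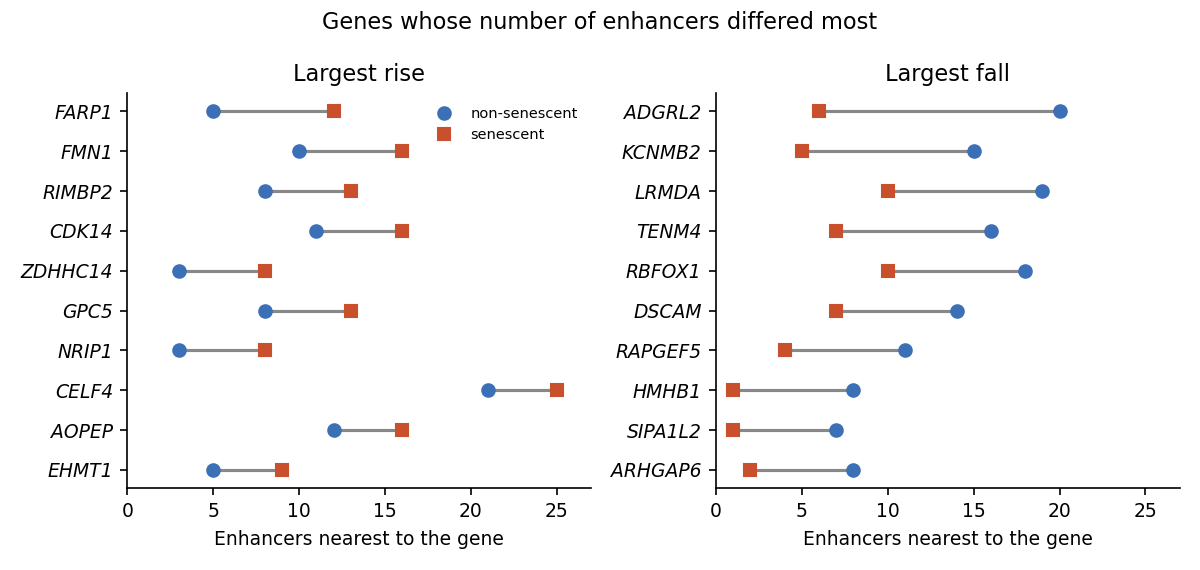
Number of enhancers nearest to each gene in non-senescent (blue circles) and senescent (red squares) cells, for the 10 genes with the largest increase (left) and the 10 with the largest decrease (right) from the non-senescent to the senescent list. The widest spans are ADGRL2 (20 to 6) and FARP1 (5 to 12).

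ZNF608 and WWOX were among the 5 genes with the most enhancers in both lists. ZNF608 had 40 non-senescent and 38 senescent enhancers and WWOX 26 and 24, while EFNA5, an ephrin ligand, had 24 and 21. Within 100 kb of start sites both ZNF608 and WWOX had 1 more in senescent cells. SDK1 went from 23 to 19 and KCNMA1, the pore of the channel of which KCNMB2 is a subunit, from 23 to 18. PTPRN2, the dense-core vesicle protein phogrin, went from 22 to 24 and from 90292 to 118478 bases, but had 1 fewer within 100 kb. DIP2C went from 21 to 24.

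Enhancers were found in the non-senescent list alone for 957 genes (14.2%) and in the senescent list alone for 668 (9.91%). With the non-senescent list trimmed to its 13076 widest enhancers the order was the opposite, 726 and 836, and size and width cannot be told apart there. In 821 and 618 of these genes the state had a single enhancer. At most, VPS13D and AUTS2, a neurodevelopmental regulator, had 5 non-senescent enhancers and no senescent one, and CAPN2, LRRTM3 and RORA, a nuclear receptor, had 4. DCUN1D3, SH2D4B and SH3GLB1 had 3 senescent enhancers and no other. Those of DCUN1D3 were all intronic, 1.47 to 9.28 kb from a start site and 2449 to 4974 bp wide.

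Only 141 genes (2.09% of genes with an enhancer, 2.75% of those in both lists) exchanged all their enhancers for others, 95 of them 1 for 1. The closest non-senescent and senescent enhancers were at a median of 29.3 kb from each other (interquartile range 11.2 to 69.3 kb), 1 pair was within 1 kb, 22 were over 100 kb apart, and in no gene did they lie in 1 H3K27ac peak. The senescent enhancer was nearer to the start site in 68 genes and the non-senescent one in 73. The median widths were 1468 bp for non-senescent and 1461 bp for senescent enhancers of these genes.

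MBNL1, a splicing regulator, was the switching gene with the most enhancer bases. Its single non-senescent enhancer was 1336 bp wide and intronic (chr3:152381657-152382992), 32.1 kb upstream of the nearest of the gene's start sites. It had no senescent counterpart, and 4 senescent enhancers of 15056 bp together had none in non-senescent cells. One of these 4, 9991 bp wide, began 1.24 kb downstream of another start site (chr3:152301440-152311430, intronic). Its peak had a mean count of 1367. LSS, lanosterol synthase of the cholesterol pathway, had 1 non-senescent enhancer of 1370 bp and 2 senescent ones of 5204 and 6219 bp. At ANKRD7 and RNF212B, a senescent enhancer covered a start site, whereas the closest non-senescent enhancer was 55.6 and 2.37 kb away. At SRRM4, a neuronal splicing factor, 2 enhancers were non-senescent, of 960 bp at 27.2 kb and of 5291 bp at 86.8 kb. One of 1393 bp at 9.90 kb was senescent. MLLT1, a component of elongation complexes, had a 6371-bp non-senescent and a 797-bp senescent enhancer. At CADPS2, a priming factor of dense-core vesicles, 3 enhancers were non-senescent and 1 was senescent. MELK, a mitotic kinase, had 4 and 1.

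**Figure D4:**
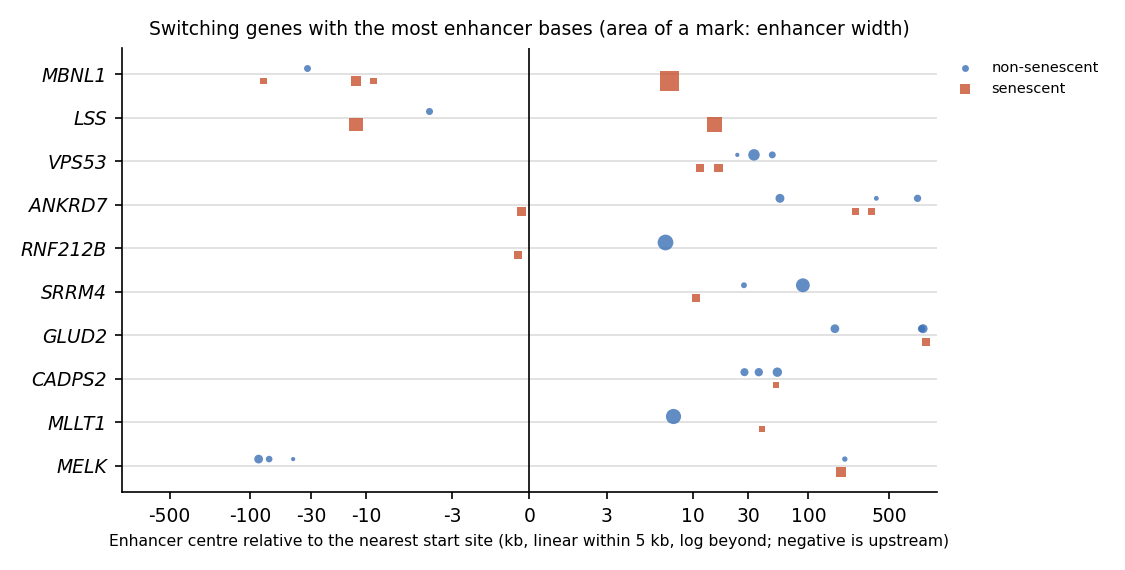
Centres of the enhancers of the 10 switching genes with the most enhancer bases, in kb from the nearest start site of the gene (negative is upstream, scale linear within 5 kb and logarithmic beyond), with non-senescent enhancers as blue circles above the line and senescent ones as red squares below, and the area of a mark set by the width. The widest mark is the 9991-bp senescent enhancer of MBNL1, and no gene has a circle and a square from overlapping enhancers.

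Beta-cell transcription factors had enhancers in 25 of 28 cases (89.3%, background of all protein-coding genes 34.8%). Their number went from 122 to 105, a ratio of 0.861 against 0.878 over all genes, while the bases were 414.7 and 417.5 kb. Of the 25, 6 had more (24%, background 21.2%), 15 fewer (60%, background 36.4%) and 4 an equal number. The background genes, with a median of 1 enhancer in each list, were not matched for enhancer number. PDX1, a master regulator of pancreas and beta cells, had an enhancer only in the senescent list, of 1478 bp (chr13:27943318-27944795, intergenic, 23.3 kb from the start site). MAFA, which drives insulin transcription in mature beta cells, had a shared enhancer of 6635 bp in non-senescent and 8249 bp in senescent cells, and a second, senescent one of 2760 bp at 14.3 kb. PAX6, an islet factor, went from 2 to 3, with a senescent-only one of 5633 bp (by its own 5' end alone it had 1 fewer), ISL1 from 5 to 6 and MLXIPL, the glucose-sensing factor ChREBP, from 0 to 1. TCF7L2, a Wnt effector tied to type 2 diabetes, went from 13 to 8 (a change of -3 within 100 kb), and none of the 8 lacked a counterpart. NKX6-1 and RFX6 went from 9 to 7 each and NKX2-2 from 2 to 1. FOXA1 had 1 enhancer in the non-senescent list and none in the senescent list. FOXO1 had 5 and 4 enhancers, all shared, but 14188 and 22341 bases.

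Genes of glucose sensing and insulin secretion had enhancers in 32 of 46 cases (69.6%, background 34.8%), 151 in non-senescent and 137 in senescent cells. Of the 32, 8 had more (25%), 13 fewer (40.6%) and 11 an equal number, near the 21.2% and 36.4% of all genes with an enhancer. Their enhancer bases went from 649.8 to 694.5 kb, a ratio of 1.07 against 0.978 over all genes. GLP1R, the incretin receptor, went from 1 to 2 enhancers, CPE, a prohormone processing enzyme, from 2 to 3, and SYT7, a calcium sensor of exocytosis, from 2 to 3. ADCY5, an adenylyl cyclase, had 2 in the senescent list alone. PCSK1, the proinsulin convertase, went from 11 to 6 (a change of -2 within 100 kb), SCG2, a granin, from 6 to 2 and SLC30A8 from 13 to 10, the last with 77000 and 75951 bases. INS had no enhancer of its own in either list. Within 100 kb of it were 5 non-senescent and 3 senescent enhancers, all nearest to TH, the neighboring tyrosine hydroxylase gene, and the 2 without a counterpart were 16.8 and 35.6 kb from the INS start site.

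Of 37 genes of the cell cycle, 10 had enhancers (background 34.8%). Their number went from 25 to 15 and their bases from 61.7 to 45.6 kb, with more in 1 (background 21.2%), fewer in 7 (background 36.4%) and an equal number in 2. MYC, a driver of growth, went from 10 to 6 (but had 1 more within 100 kb), E2F7 from 3 to 1 and MYBL2 from 2 to 1. MCM3 and MCM5, helicase subunits of DNA replication, and AURKB, a mitotic kinase, had 1 enhancer in the non-senescent list alone. CCNE1, cyclin E1, went from 1 to 2. Of 34 genes of the p53 pathway and of CDK inhibitors, 15 had enhancers (44.1%, background 34.8%), 45 and 37 in number, more in 5 (33.3%, background 21.2%), fewer in 6 (40.0%, background 36.4%) and equal in 4. CDKN2C, the inhibitor p18, MDM4, FDXR and PPM1D had 1 enhancer in the senescent list alone (4 of 15 genes, background 9.91%). That of CDKN2C was 2313 bp of a 21284-bp peak, and the mean count of 6534 is of the whole peak. The MDM4 enhancer had the smallest width, 500 bp, and was 0.298 kb from a start site. That of FDXR was 1115 bp of a 5482-bp peak, at 2.85 kb, and that of PPM1D was 1375 bp wide, at 25.8 kb. SESN1 went from 1 to 3. GADD45G went from 14 to 9 (but had equal numbers within 100 kb), GADD45B from 5 to 1 and CDKN2B, p15, from 8 to 6. CDKN1A, p21, had no enhancer in either list.

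Of 45 interferon-response genes, 15 had enhancers (33.3%, background 34.8%), 26 and 22 in number, more in 2 (13.3%, background 21.2%), fewer in 5 (33.3%, background 36.4%) and equal in 8. IFNAR1 and IFNAR2, the receptor of type I interferon, had 1 more each (0 to 1 and 3 to 4). Of 33 secreted factors associated with senescence, 9 had enhancers (27.3%, background 34.8%), 24 and 18 in number, with equal numbers in 2. More were found in 1 (background 21.2%), IGFBP5 with 1 and 2, and fewer in 6 (background 36.4%), including VEGFA with 5 and 3. AP-1 and small MAF factors had 8 enhancers in each state at 7 of 14 genes (50.0%, background 34.8%). Of the 7, 2 had more (28.6%, background 21.2%), 2 fewer (28.6%, background 36.4%) and 3 an equal number. JUN went from 2 to 3 and FOSL2 from 1 to 2, both with a change of 0 within 100 kb. ATF3 and MAFG went from 1 to 0. Neuronal adhesion and axon guidance genes had enhancers in 27 of 29 cases (93.1%, background 34.8%). They were 189 and 156 in number, a ratio of 0.825 against 0.878 over all genes. Of the 27 genes, 4 had more (14.8%, background 21.2%), 16 fewer (59.3%, background 36.4%) and 7 an equal number. The background genes, with a median of 1 enhancer in each list, were not matched for enhancer number. Of the enhancers of the 27 genes, 67 of 189 and 34 of 156 were in 1 list alone, against 29.4% and 20.5% of all enhancers. CNTNAP2 went from 6 to 2 and CDH13 from 6 to 3, whereas EPHA7 went from 2 to 5. Within 100 kb of a start site the changes were smaller, -1 for CNTNAP2 and CDH13 and 0 for EPHA7. Of 18 transcription factors of pancreatic and neural progenitors, 13 had enhancers (72.2%, background 34.8%), 67 and 57 in number. The number was higher in 2 (15.4%, background 21.2%), lower in 7 (53.8%, background 36.4%) and equal in 4. PROX1 went from 9 to 6 and SOX2 from 4 to 5.

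The lists were also read for the identity of the cells. Enhancers were nearest to 5 of 8 beta-cell markers (62.5%, background 34.8%), 14 in each state, and INS, IAPP and NEUROD1 had none as nearest gene. Of other islet markers, GCG, SST and PPY had none. Of 5 acinar markers 1 had enhancers (20%, background 34.8%), CPA1, with 2 in the senescent list alone. The duct markers KRT19, CFTR and SOX9 had 12 and 10. Of mesenchyme markers COL1A2 had 2 in the senescent and COL3A1 1 in the non-senescent list alone, the endothelial CDH5 had 2 and 1, the blood marker PTPRC 1 and 1, and the others of these lists none.

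The content of motifs differed between enhancers in 1 list alone, and less between the whole lists, where the ratio of senescent over non-senescent density was 0.958 for NEUROD, 1.02 for MAF, 0.909 for E2F and 1.00 for AP-1. CAGATG occurred 0.989 times per kb (0.967 to 1.01) in enhancers of the non-senescent list alone and 0.807 (0.781 to 0.833) in those of the senescent list alone, a ratio of 0.816 (95% counting interval 0.785 to 0.848). Shared enhancers were between, at 0.892 and 0.880, and the genome had 0.695. The motif TGCTGAC had the opposite order, 0.153 and 0.189 per kb, a ratio of 1.24 (1.13 to 1.35), with 0.161 and 0.160 in shared enhancers and 0.110 in the genome. Both ratios were farther from 1 when only the central 300 bp were read, with 31.6% and 23.5% of windows for CAGATG and 5.51% and 7.87% for TGCTGAC. The E2F motif TTCCCGC was less dense in the senescent list alone, with a ratio of 0.626 (0.513 to 0.764), although it was rare (354 and 133 matches). It is the richest in G and C of those read, and the median GC content was 43.2% in the non-senescent and 42.3% in the senescent list alone. Its part in the difference was not tested.

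The other motifs differed less. The ratio was 1.08 (1.02 to 1.15) for the AP-1 motif TGANTCA, 0.912 (0.842 to 0.989) for the forkhead motif TGTTTAC, 0.922 (0.832 to 1.02) for the RFX motif GTTGCCA, 0.919 (0.831 to 1.02) for the TEAD motif GGAATGT and 1.03 (0.944 to 1.12) for the interferon response motif GAAANNGAAA. The last 3 intervals include 1. Matches were counted on both strands, and enhancers of 1 gene are not independent of each other.

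**Figure D5:**
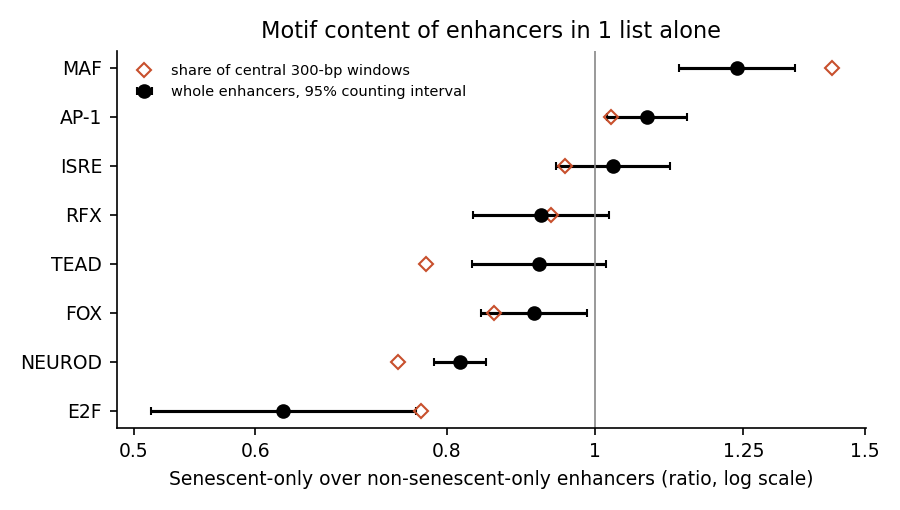
Ratio of motif content in enhancers of the senescent list alone over those of the non-senescent list alone, on a log scale, from matches per kb of whole enhancers (black points with 95% counting intervals) and from the share of central 300-bp windows with a match (red diamonds). MAF is to the right of 1 (1.24) and NEUROD (0.816) and E2F (0.626) to the left by both measures.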

How the data were processed

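The series holds 40 ChIP-seq libraries of EndoC-βH3 cells, 20 of them inputs. Per the study's methods, the authors aligned reads to hg38 with Bowtie2, removed duplicates, called H3K27ac and H3K4me1 peaks with HOMER against input, and defined enhancers as their overlap outside active promoters, which are windows around start sites that carry H3K27ac, H3K4me3 and open chromatin. Tool versions and how replicates were combined are not given in the sources used here. The deposited enhancer lists hold positions alone. Of the deposited H3K27ac table, the peak positions and the authors' mean signal (normalized counts averaged over both states) were used, and of the CTCF and Rb files the positions. The tables also hold the authors' log2 fold changes, p-values and other scores of their own comparison, which were not used. The study's methods give 1 target number of reads for all samples, but the depth each library reached is not given in the sources used here, and peak calling at unequal depth cannot be told apart from a difference in number or width of enhancers.

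Python 3.11.15 (pandas 2.3.3, scipy 1.17.1, networkx 3.6.1) was used. Enhancers that overlapped by at least 1 bp were joined into units. Each enhancer was assigned to the protein-coding gene of GENCODE 44 with the nearest start site among 77975 (readthrough genes left out, distances from the nearer edge, 32 and 23 ties settled by symbol). Exonic means overlapping an exon of a protein-coding transcript, intronic inside such a gene only, and intergenic neither. All chromosome names were those of hg38 and 0 enhancers ended beyond their chromosome. The code that builds units was tested on simulated regions. Shares have 95% Wilson intervals, medians order-statistic intervals, and motif counts exact Poisson or, for ratios, log-normal intervals.

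The genes named are members of 9 lists (284 entries), the 10 with the largest increase and decrease in enhancer number, the 10 switching genes with the most enhancer bases, the 5 with the most enhancers, and those of the widest, split or merged enhancers. Lists are given by their counts with examples, and a few genes are not reported here. The comparison, members and lists were chosen with earlier results of these data known. Alternatives were the overlap that counts as shared, joining or leaving out short or near enhancers, equal list sizes, other rules for the nearest gene, and the motif window.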

Additional observations from a re-analysis of the deposited data

How the results depend on the processing

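Both lists give 1 set of regions per state, and nothing here is tested against replicates. No paired analysis was possible because the lists pool the libraries of a state and carry no replicate numbers, and no replicate was left out for the same reason. The depth each library reached is not given in the sources used here.

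Leaving out enhancers under 1 kb moved the median widths to 2421 bp (non-senescent) and 2610 bp (senescent), and leaving out those within 2 kb of a start site moved the senescent median to 2453 bp. The shared shares became 68.3% and 75.8% when at least 50% of an enhancer had to be covered, 62.8% and 71.5% with a reciprocal overlap of 50%, and 75.9% and 75.3% with the non-senescent list trimmed to equal size, which also moved its median gap to 67.7 kb. Joining enhancers under 1 kb apart gave median gaps of 62.4 and 72.6 kb and 58 split units. Stitching at 5 kb gave 1384 and 1100 groups of several enhancers. In the central 300 bp the motif ratios were 0.743 for NEUROD, 1.43 for MAF, 0.775 for TEAD and 0.770 for E2F, and 0.956 for the interferon response motif, on the other side of 1 but within its interval.

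Counting only enhancers within 100 kb of a start site moved small counts of list members: 1 progenitor factor and 2 cell-cycle genes with more, 3 interferon-response genes and 3 secreted factors with fewer, 0 AP-1 and small MAF factors with more, and 2 neuronal adhesion genes with more, also 2 by the 5' end alone. The change in number turned to 1 more in senescent cells for MYC, UNC5D, WWOX and ZNF608 and to -1 for PTPRN2 within 100 kb, and to -1 for PAX6 by the 5' end. In 40 other cases at single genes the change moved by 2 or more without turning its sign, to 0 for CADM2, NEGR1, CNTNAP5, SIX3 and SOX11 within 100 kb among others. The cause was not tested. Of the 141 switching genes, 114, 107 and 121 were also found by the 5' end, within 100 kb and with the gene body first. The other 66 settings of summary values stayed within 1.5 times the count or inside the interval.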
